A study of Danio rerio with 8 samples.

Results

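The genes described here encode the proteasome and its direct helpers in zebrafish. They were chosen by symbol, as every gene named psma, psmb, psmc, psmd, psme, psmf or psmg followed by a digit, leaving out the inducible subunits psmb8a and psmb9a. The RefSeq gene table held 57 such genes. The array carried a probe for 55 of them among 20958 named genes, and 54 were bright enough to be tested among 17264 named genes. No probe was matched to psme4a or psmg4, and psmb11a was not well above background.

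The study compared pex2 mutant fish, a model of Zellweger syndrome, with their wild-type siblings. Pex2 is a ubiquitin ligase in the peroxisomal membrane that is needed to import enzymes into peroxisomes. One group was pex2 -/- fish of the typeC allele and the other was pex2 +/+ siblings, both at 5 weeks post fertilization. Each group had 4 pools, each an equal mixture of total RNA from 3 larvae taken as whole bodies, and each pool was hybridised with Cy3 label to its own one-colour Agilent array. All 8 arrays lay on 1 slide. The labels used here give neither sex nor clutch, and p-values therefore measure only the spread between these pools.

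The proteasome is the large protease that degrades proteins tagged with ubiquitin. Its barrel, the 20S core, stacks rings of α subunits, which gate the entrance, around rings of β subunits, 3 of which carry the active sites. The 19S cap has a base, whose ring of ATPases unfolds the substrate and threads it into the core, and a lid, which holds the enzyme that removes the ubiquitin chain. Core and cap together form the 26S particle. Chaperones assemble core and base but are absent from the finished particle, and other caps (the activators) can replace the 19S cap. Transcripts of the subunits are usually made in a coordinated way in vertebrate cells, since the particle needs each subunit in a fixed ratio.

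The label of constitutive subunits did not hold for every gene that the symbol rule took. Psmb10 is the third inducible β subunit, and RefSeq gives psmb11b, psmb12 and psmb13a the synonyms beta5tb, beta1t and beta2ta, so they are described apart from the housekeeping β ring. Psmc3ip and psme3ip1 are partner proteins named after subunits and are not subunits themselves. The rest comprised 37 genes of the 26S particle (17 core, 11 base and 9 lid genes, duplicated genes included) and the assembly chaperones, activators and inhibitor. The subunit genes adrm1 and sem1 lie outside the symbol rule and are not among the 37.

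Values are log2 intensities minus the 75th percentile of the same array, so a level of 0 is the brightness that 75% of probes stay below, and a difference of 1 is a doubling. Before scaling, that percentile ran from 611 to 839 intensity units over the sibling arrays and from 454 to 499 over the mutant arrays (means 698 and 476, n = 4 per group, p = 0.0286 by an exact permutation test, two-sided, which is the lowest p that 4 against 4 can give). The share of probes that an array detected well above background ran from 67.3% to 76.3%, and 53 or 54 proteasome genes were among them. Each proteasome gene had 1 probe, apart from psma6a with 2, whose brighter one was used. Of the probes used, 52 were spotted 2 times, with a median difference of 0.07 on the log2 scale between the copies. The pex2 transcript itself was not analysed here, so the genotypes rest on the labels.

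Most transcripts of the 26S particle did not pass the test between genotypes, and the genes that did were spread over core and lid. Of the 37 subunit genes, 4 rose and 5 fell in mutants at a limma adjusted p under 0.05, which is 24.3% against 57.6% of all named genes. By direction, 29.9% of all named genes rose and 27.8% fell. The median of the 37 differences was -0.02, their range was -0.91 to 1.12, and the median size was 0.14 against 0.50 over all genes. In the core 1 of 17 genes rose and 5 fell, in the lid 3 of 9 rose, and in the base none of 11 passed the test. In either direction, 35.3% of the core genes and 33.3% of the lid genes were called, both under the 57.6% over all genes. The share that fell in the core and the share that rose in the lid were near those over all genes. The calls of psmd3 and psma6a were each lost in 6 of 8 fits that left out 1 pool. The median difference was -0.17 in the core, 0.01 in the base and 0.22 in the lid. The expression of 9 of the 37 genes did not overlap between genotypes, against 54.6% of all named genes. Over all 54 genes of the rule, 6 rose, 13 fell and 35 did not pass the test. The 6 include psmb11b, which met the detection filter mainly through the mutants.

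**Figure D1:**
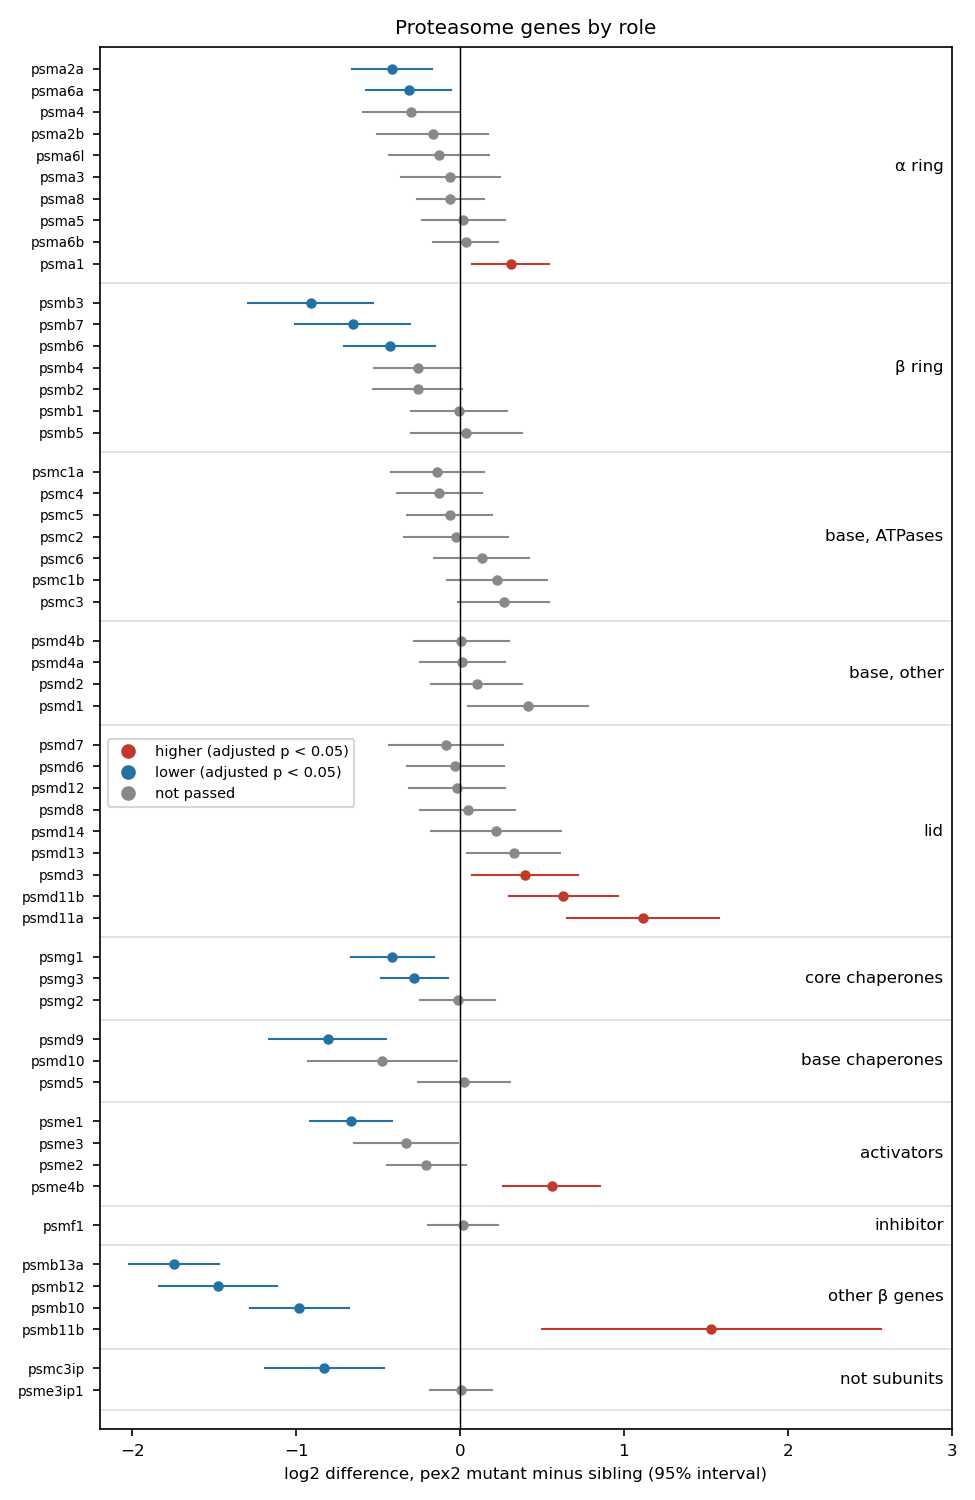
Log2 difference (pex2 mutant minus sibling, horizontal axis) of the 54 tested genes, grouped by role, with points for the estimate and bars for the 95% interval from limma. Blue genes fell, red genes rose and grey genes did not pass an adjusted p of 0.05. Blue points lie in both core rings, where psma1 is red, and the lid holds red and grey points. The base holds grey points only. Blue points also lie among the chaperones, activators, other β genes and genes that are not subunits, and psme4b and psmb11b are red.

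The α ring forms the outer rings of the core and its gate. Of its 10 genes 1 rose, 2 fell and 7 did not pass the test, 30% called against 57.6% of all genes. Psma2a, which encodes α2, had levels of 2.91, 2.62, 2.80 and 2.67 in sibling pools 1 to 4 and of 2.26, 2.29, 2.26 and 2.53 in mutant pools 1 to 4. Every mutant pool lay below every sibling pool, and the difference was -0.42 ± 0.11 (SE, n = 4 per group), a 1.34-fold lower level with a limma adjusted p of 0.00997. Its duplicate psma2b had a difference of -0.17 ± 0.15 (adjusted p = 0.356), and the difference between the duplicates was not tested.

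Psma6a measured 2.51, 2.17, 2.33 and 2.27 in siblings and 2.07, 2.04, 1.79 and 2.11 in mutants. The groups did not overlap, by a narrow margin, and the gene fell by 0.31 ± 0.11 (adjusted p = 0.0413). That call was lost when sibling pool 1, 3 or 4 or mutant pool 1, 2 or 3 was left out (adjusted p from 0.0599 to 0.102), and also with median scaling (0.0685) or no filter on dim probes (0.0600). The duplicate psma6b had a difference of 0.03 ± 0.09 (adjusted p = 0.751), and the dim psma6l one of -0.13 ± 0.13 (adjusted p = 0.428).

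Psma1 was the α gene that moved the other way. It had levels of 4.75, 4.48, 4.60 and 4.50 in siblings and 4.77, 4.92, 4.83 and 5.05 in mutants. The highest sibling pool and the lowest mutant pool almost touched, and the gene rose by 0.31 ± 0.10 (1.24-fold, adjusted p = 0.0303). The call was lost without sibling pool 2, 3 or 4 or mutant pool 2 or 4 (adjusted p from 0.0570 to 0.0844). Quantile scaling raised the difference to 0.62. Of the remaining α genes, psma4 had the largest difference, -0.30 ± 0.13 (adjusted p = 0.0735), which passed under normexp (0.0279) and with the slide row as a block (0.0258). The genes psma3, psma5 and psma8 had differences of -0.06, 0.02 and -0.06.

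The β ring held the largest decreases of the 26S particle. Of its 7 genes 3 fell and 4 did not pass the test, and the median difference was -0.26. The share called was thus 42.9%, all lower, against 57.6% of all genes called in either direction and 27.8% lower. Psmb3, a β subunit without an active site, had levels of 1.52, 1.1, 1.33 and 1.20 in siblings and of 0.12, 0.35, 0.21 and 0.81 in mutants. The lowest sibling pool was above the highest mutant pool, and the transcript was 1.88-fold lower in mutants (-0.91 ± 0.17, adjusted p = 0.00213).

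Of the 3 housekeeping subunits with an active site, 2 fell, beside 27.8% of all named genes. Psmb7, the β2 subunit with trypsin-like activity, measured 2.09, 1.82, 1.89 and 1.86 in siblings and 0.90, 1.45, 1.15 and 1.54 in mutants. It fell by 0.66 ± 0.15 (1.58-fold, adjusted p = 0.0068) with no overlap. Psmb6, the β1 subunit with caspase-like activity, measured 2.99, 2.81, 2.90 and 2.92 in siblings and 2.24, 2.54, 2.39 and 2.74 in mutants. It fell by 0.43 ± 0.12 (1.35-fold, adjusted p = 0.0156), also with no overlap.

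Psmb5, the β5 subunit with chymotrypsin-like activity, measured 3.26, 2.79, 2.96 and 2.82 in siblings and 2.86, 2.79, 3.08 and 3.25 in mutants. The pools of both genotypes covered the same range, and the difference was 0.04 ± 0.15 with a 95% interval from -0.30 to 0.38 (adjusted p = 0.838). Differences between the 3 positions were not tested. Among the structural β subunits, psmb1 had a difference of -0.00 ± 0.13, psmb2 of -0.26 ± 0.12 (adjusted p = 0.0918) and psmb4 of -0.26 ± 0.12 (adjusted p = 0.0849). Psmb2 passed without mutant pool 4 (adjusted p = 0.0322) and psmb4 with the slide row as a block (adjusted p = 0.0374), and both passed under normexp. The calls for psma2a, psmb3, psmb6 and psmb7 held when any 1 pool was left out and under every alternative scaling, filter and block tried on all 8 arrays.

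**Figure D2:**
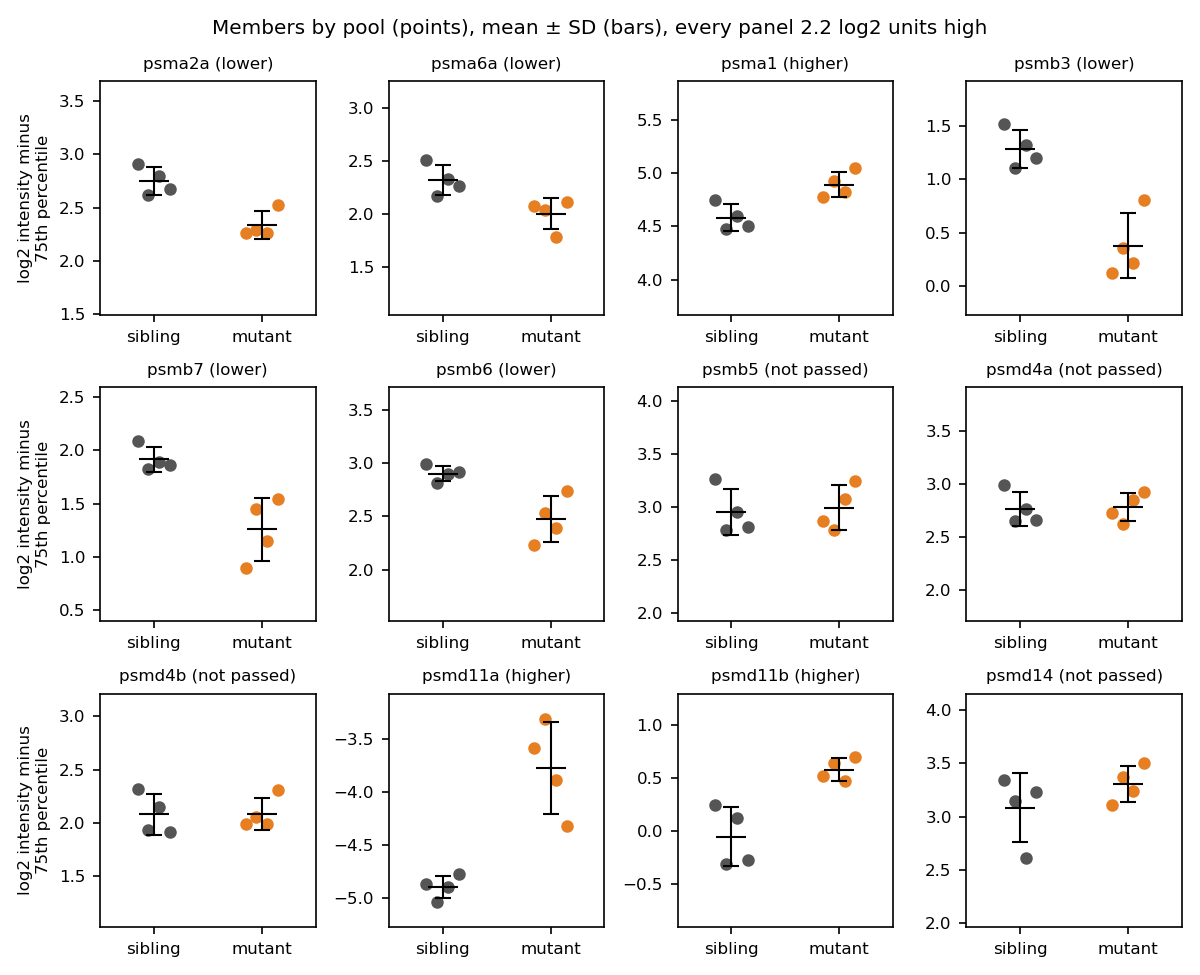
Level of 12 subunit genes in each pool (vertical axis, log2 intensity minus the array's 75th percentile), with siblings in grey and mutants in orange, one point per pool and bars for mean ± SD (n = 4). Psmb3, psmb7 and psmb6 separate downwards, psmd11a and psmd11b upwards, and psmb5, psmd4a and psmd4b overlap between genotypes.

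In the base, differences were small and none of the 11 genes passed the limma test at an adjusted p under 0.05. Of these, 1 gene (psmd1) had an unadjusted p under 0.05, and every gene overlapped between genotypes. The base genes that the symbol rule covers are the ATPase ring (psmc1 to psmc6), the scaffold subunits psmd1 and psmd2 and a ubiquitin receptor, psmd4. The ATPase genes spanned -0.14 ± 0.12 for psmc1a to 0.27 ± 0.12 for psmc3 (adjusted p = 0.0905), with an adjusted p of 0.0331 for psmc3 without sibling pool 1. Between them lay psmc1b at 0.23, psmc6 at 0.13, psmc2 at -0.02, psmc5 at -0.06 and psmc4 at -0.13. The scaffold gene psmd2 had a difference of 0.10 ± 0.12.

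Psmd1 measured 1.53, 0.96, 1.28 and 1.04 in siblings and 1.48, 1.52, 1.55 and 1.93 in mutants. Sibling pool 1 was the one sibling pool within the mutant range, and the difference was 0.41 ± 0.16 (adjusted p = 0.0512). Without sibling pool 1 it was 0.52 with an adjusted p of 0.0210, and with the slide row as a block the adjusted p was 0.0248. It passed in 6 of 20 alternatives.

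Both psmd4 genes were near 0. Psmd4a measured 2.99, 2.65, 2.77 and 2.66 in siblings and 2.73, 2.62, 2.85 and 2.92 in mutants, a difference of 0.01 with a 95% interval from -0.25 to 0.28. Psmd4b measured 2.32, 1.93, 2.15 and 1.91 in siblings and 1.99, 2.06, 1.99 and 2.31 in mutants, a difference of 0.01 with an interval from -0.28 to 0.30. The pools of both genotypes were interleaved for each gene. Leaving both out raised the base median to 0.10.

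The lid held the subunit genes that rose most. Psmd11, whose yeast counterpart Rpn6 clamps the lid to the core, is present as a pair of genes, and both rose. Psmd11b measured 0.24, -0.31, 0.12 and -0.27 in siblings and 0.51, 0.64, 0.47 and 0.69 in mutants. Every mutant pool was above every sibling pool, and the level was 1.55-fold higher (0.63 ± 0.14, adjusted p = 0.00633).

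Psmd11a measured -4.87, -5.03, -4.90 and -4.78 in siblings and -3.58, -3.32, -3.89 and -4.32 in mutants. The groups did not overlap, and the difference was 1.12 ± 0.20 (2.17-fold, adjusted p = 0.00202). This probe lay near the detection limit, well above background on 3 sibling and 4 mutant arrays, and normexp background correction, which compresses dim probes, gave 0.65. Both psmd11 calls held when any 1 pool was left out.

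Psmd3 measured 0.35, -0.22, -0.00 and -0.02 in siblings and 0.29, 0.45, 0.34 and 0.62 in mutants. Sibling pool 1 lay inside the mutant range, and the gene rose by 0.40 ± 0.14 (1.32-fold, adjusted p = 0.0382). The call was lost without sibling pool 2, 3 or 4 or mutant pool 2, 3 or 4 (adjusted p from 0.0561 to 0.1003) and with no filter on dim probes (0.0537).

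Psmd14 is the metalloprotease that cuts the ubiquitin chain off the substrate. It measured 3.35, 3.15, 2.61 and 3.23 in siblings and 3.11, 3.37, 3.24 and 3.51 in mutants. Sibling pool 3 was low and the other pools overlapped, with a difference of 0.22 ± 0.17 and a 95% interval from -0.17 to 0.62 (adjusted p = 0.297). Psmd13 had a difference of 0.33 ± 0.12 and just missed the threshold (adjusted p = 0.0508). It passed in 9 of 20 alternatives, among them those without sibling pool 1 (adjusted p = 0.0287) or mutant pool 1 (adjusted p = 0.0224), and quantile scaling raised its difference to 0.54 (adjusted p = 0.0086). Psmd12, psmd6, psmd7 and psmd8 had differences of -0.02, -0.03, -0.09 and 0.05.

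The balance between core and cap was then followed in each pool, as the median over genes of the deviation from the 8-pool mean. The core median was 0.30, -0.03, 0.15 and -0.03 in sibling pools 1 to 4 and -0.18, -0.11, -0.13 and 0.07 in mutant pools 1 to 4. The lid median was 0.13, -0.23, -0.14 and -0.16 in siblings and -0.08, 0.18, 0.04 and 0.31 in mutants. Both overlapped between genotypes, and sibling pool 1 and mutant pool 4 were the highest of their genotype in both.

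Differences between subcomplexes within a pool removed these shifts. Core minus lid was 0.17, 0.20, 0.29 and 0.12 in siblings and -0.10, -0.29, -0.18 and -0.24 in mutants, so the genotypes did not overlap. Each gene was centred on its own 8-pool mean, which favours opposite signs in the genotypes, so only their separation is a measurement. Core minus base was 0.11, 0.15, 0.16 and 0.13 in siblings and -0.10, -0.10, -0.08 and -0.18 in mutants, again without overlap. Base minus lid overlapped, at 0.06, 0.05, 0.13 and -0.00 in siblings and -0.00, -0.19, -0.09 and -0.06 in mutants. For scale, 54.6% of all named genes, taken singly, did not overlap between genotypes. No such share was computed for contrasts between other groups of genes. These are descriptions of genes grouped by role, and no test was made over the groups.

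The order of core below base below lid held in 22 of 22 alternatives, with the core median under 0 and the lid median above 0 in each. Some alternatives, among them the block fits and the one with no filter on dim probes, left every difference unchanged and could not alter this order. Their sizes were less stable. The core median was -0.03 under quantile scaling, -0.28 under normexp and -0.11 without mutant pool 1, and the lid median was 0.34 under quantile scaling, 0.15 under normexp and 0.09 without sibling pool 3. Under quantile scaling 7 of the 37 subunit genes changed sign. The shift from the main scaling ran from -0.08 to 0.31 over the 37 genes.

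The level of a pool went with the position of its array on the slide. Sibling pools 2 and 4 and mutant pools 1 and 3 lay in slide row 1, and the others in row 2. The median over all 37 subunits was 0.20 and 0.05 in the sibling pools of row 2 against -0.12 and -0.08 in those of row 1, and -0.01 and 0.21 in the mutant pools of row 2 against -0.10 and -0.07 in row 1. Each row held both genotypes. Within row 1 the core, base and lid medians were -0.20, 0.12 and 0.14, and within row 2 they were -0.20, -0.01 and 0.36. Of the 54 tested genes, 41 had the same sign in both rows. No such share was computed over all named genes, so this count has no background beside it.

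**Figure D3:**
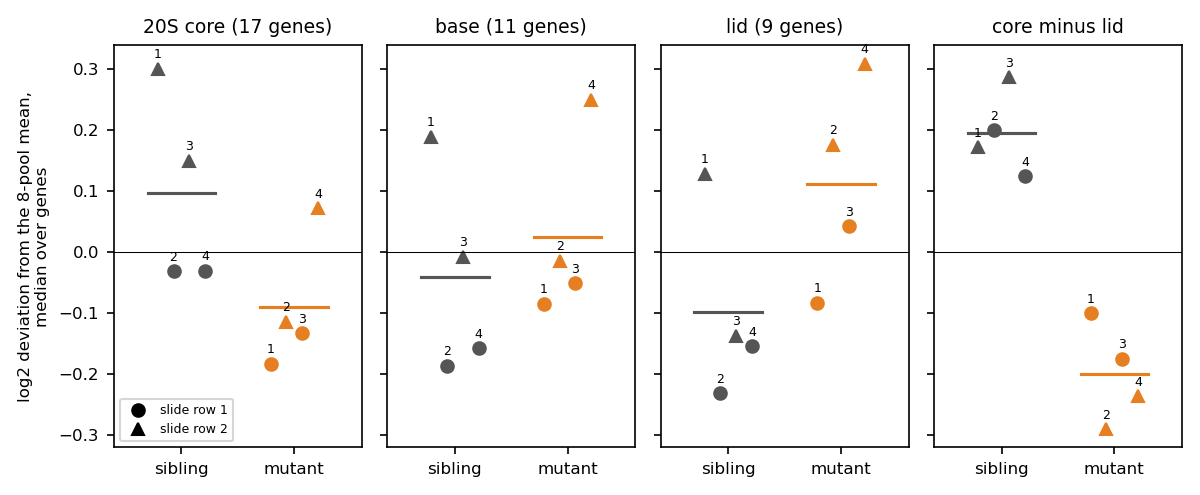
Median log2 deviation from the 8-pool mean over the genes of the core, base and lid, and the core minus lid contrast (vertical axis), for each numbered pool, with horizontal lines for genotype means, circles for slide row 1 and triangles for slide row 2. Single subcomplexes overlap between genotypes, and core minus lid does not: siblings lie from 0.12 to 0.29 and mutants from -0.29 to -0.10.

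Of the 6 measured assembly chaperones of core and base, 3 fell, 50% against 57.6% of all genes called in either direction. Those of the core, psmg1 to psmg3, guide the building of the α ring. Psmg1 measured 2.1, 2.14, 2.24 and 2.14 in siblings and 1.73, 1.56, 1.67 and 1.99 in mutants, a decrease without overlap (-0.41 ± 0.11, adjusted p = 0.0118). Its partner psmg2 had a difference of -0.01 ± 0.10 (adjusted p = 0.914).

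Psmg3 measured 1.26, 1.46, 1.38 and 1.44 in siblings and 1.03, 1.11, 1.06 and 1.23 in mutants. It fell by 0.28 ± 0.09 with no overlap (adjusted p = 0.0267), a call lost without sibling pool 2, 3 or 4 or mutant pool 1 or 3 (adjusted p from 0.0552 to 0.0760). Psmd9, a chaperone of the base, measured -0.23, -0.35, -0.17 and -0.23 in siblings and -1.28, -1.29, -1.01 and -0.62 in mutants. It was 1.75-fold lower with no overlap (-0.81 ± 0.16, adjusted p = 0.00275). The other base chaperones, psmd10 and psmd5, had differences of -0.47 ± 0.20 (adjusted p = 0.0682) and 0.02 ± 0.12. Psmd10 reached -0.64 with an adjusted p of 0.0108 without mutant pool 4.

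Of the 4 tested genes of alternative caps, 1 fell and 1 rose, 50% against 57.6% of all genes. Psme1 and psme2 form the activator that interferon induces in mammals, and psme1 measured 1.48, 1.40, 1.72 and 1.50 in siblings and 0.98, 0.76, 0.72 and 0.97 in mutants. It was 1.58-fold lower with no overlap (-0.66 ± 0.11, adjusted p = 0.00126), while psme2 had a difference of -0.21 ± 0.11 (adjusted p = 0.125). Psme4b, a gene for the large nuclear activator known in mammals for its part in DNA repair and sperm formation, measured -1.14, -1.50, -1.28 and -1.35 in siblings and -0.60, -0.57, -0.93 and -0.93 in mutants. It was 1.47-fold higher with no overlap (0.56 ± 0.13, adjusted p = 0.00635). The nuclear activator psme3 had a difference of -0.33 ± 0.14 (adjusted p = 0.0683), which passed without sibling pool 4 (0.0440) or mutant pool 4 (0.0289), and the inhibitor psmf1 had one of 0.02 ± 0.09.

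Of the 4 tested β genes outside the housekeeping ring, 3 fell and 1, near background, rose. All 4 were thus called, against 57.6% of all genes, but the 1 that rose, psmb11b, met the detection filter mainly through the mutants. Inducible subunits replace the housekeeping ones at the same position, mainly in immune cells, and yield peptides for antigen presentation. Psmb10, the inducible β2 subunit, measured 0.97, 0.91, 1.25 and 1.1 in siblings and 0.01, 0.01, -0.09 and 0.38 in mutants. It was 1.97-fold lower (-0.98 ± 0.13, adjusted p = 0.000484), with no overlap.

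Psmb12 measured 0.79, 0.71, 0.88 and 1.06 in siblings and -0.20, -0.71, -0.87 and -0.68 in mutants, 2.79-fold lower (adjusted p = 0.000177). Psmb13a measured 0.61, 0.69, 0.83 and 0.85 in siblings and -0.83, -1.27, -0.99 and -0.90 in mutants, 3.35-fold lower (adjusted p = 5.15e-05). In both genes the pools fell into separate ranges by genotype. The excluded inducible genes psmb8a and psmb9a, for β5 and β1, were 4.73-fold and 3.54-fold lower (adjusted p = 8.7e-05 and 0.000107). Under normexp the difference of psmb8a was -1.13 in place of -2.24.

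Psmb11b was the exception. It measured -5.21, -6.12, -4.51 and -5.84 in siblings and -4.90, -3.11, -3.86 and -3.67 in mutants. Its probe was well above background on 1 sibling and 3 mutant arrays, so it entered the test mainly through the mutants, and mutant pool 1 overlapped the siblings. The difference was 1.53 ± 0.45 (adjusted p = 0.0184) and 0.74 under normexp.

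**Figure D4:**
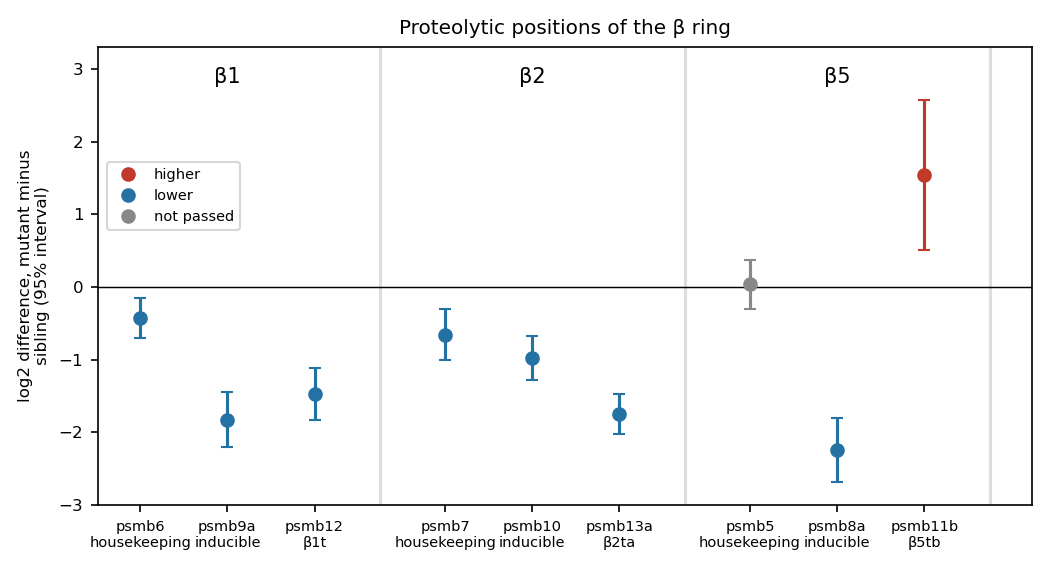
Log2 difference (mutant minus sibling, vertical axis, points with 95% intervals from limma) of the β genes at the β1, β2 and β5 positions, housekeeping gene first, then the inducible gene and the gene with the RefSeq synonym shown. At β1 and β2 every gene fell, and at β5 the housekeeping gene psmb5 stayed at 0.04 while the inducible psmb8a fell; psmb11b is near background.

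Of 11 tested lymphocyte and macrophage markers 9 were lower and 1 higher, and their mean log2 deviation from the 8-pool mean ran from 0.40 to 0.81 in sibling pools and from -0.84 to -0.41 in mutant pools. Cd8a was not well above background on any array, and cd79b only on 1 sibling array. The macrophage markers differed among themselves. Marco was the one that was higher (0.67 ± 0.22, adjusted p = 0.0302), csf1ra had a difference of 0.20 ± 0.20 and mpeg1.1 was lower (-0.41 ± 0.14, adjusted p = 0.0306). Marco passed in 15 and mpeg1.1 in 14 of 20 alternatives, and csf1ra in 1, under normexp (adjusted p = 0.0289). Of 15 tested genes of the immunoproteasome and peptide loading 9 fell, with a median of -0.80, among them the loading chaperone tapbp.1 (-1.26 ± 0.11, adjusted p = 9.41e-05). Called were 90.9% of the lymphocyte and macrophage markers and 60% of the immunoproteasome and loading genes, against 57.6% of all genes. Detection limited 2 of the 11 markers, which were well above background on fewer than 4 mutant arrays. Over the 9 markers detected on all 8 arrays, 7 were lower and 1 higher. Rag2 did not pass under normexp (adjusted p = 0.0973). The part of the markers in these results was not tested. In whole-body RNA, fewer cells of a type and less RNA per cell cannot be told apart.

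Other tissues also differed in their markers between the pools. Of 23 oocyte and germ cell markers 22 were lower in mutants, with pool means from 1.55 to 2.44 in siblings and from -5.84 to 0.57 in mutants. Well above background on fewer than 4 arrays were 17 of them in mutants and 1 in siblings. Many therefore met the detection filter mainly through the siblings, where they were high. Of the 6 detected on all 8 arrays, 5 were lower, and without any single sibling pool 15 of the 23 were called lower. Of 17 markers of dividing cells 11 were lower, with pool means from 0.43 to 0.91 and from -1.32 to -0.27. Of 15 neuron markers 10 were higher and 1 lower (-0.39 to -0.25 against 0.08 to 0.53). Of 19 skeletal muscle markers 2 were higher and 4 lower (0.16 to 0.58 against -1.52 to 0.26). The lowest muscle mean was that of mutant pool 4. Without that pool, 7 muscle markers were higher and 5 lower, and their median moved from -0.22 to 0.18. Of 12 hepatocyte markers 6 were higher and 1, hpxa, was lower (-0.14 to 0.21 against -0.36 to 0.22). The 11 hepatocyte markers other than hpxa had pool means from -0.45 to -0.11 in siblings and from 0.08 to 0.37 in mutants. Over these lists the share called ran from 31.6% (skeletal muscle) to 95.7% (oocyte and germ cell), against 57.6% of all genes. The part of these tissues in the proteasome values was not tested. Psmc3ip, whose mammalian counterpart acts in meiotic recombination, was 1.77-fold lower in mutants (-0.83 ± 0.16, adjusted p = 0.0027), and psme3ip1 had a difference of 0.00 ± 0.08.

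Genes that act before, beside or upstream of the proteasome were counted in the same fit. Of 11 regulators linked to proteasome gene transcription, 6 rose and 1 fell, 63.6% against 57.6% of all genes, with a median of 0.75. The gene that fell was nfe2l2b (-0.99 ± 0.24, adjusted p = 0.00772), which did not pass under normexp (-0.22, adjusted p = 0.169). The list includes the Nfe2l factors and their small Maf partners, which bind antioxidant response elements. The 6 that rose were nfe2l1a, nfe2l2a and the small Maf genes maff, mafga, mafgb and mafk. Mafga was well above background on fewer than 4 sibling arrays, and its difference was 0.93 on the main scale and 0.58 under normexp. Nfe2l1 drives the recovery of subunit transcripts after proteasome inhibition in mammals. Nfe2l1a measured -1.13, -0.62, -1.18 and -0.64 in siblings and -0.31, 0.40, 0.42 and -0.85 in mutants.

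Mutant pool 4 lay within the sibling range of nfe2l1a, and the difference was 0.81 ± 0.30 (adjusted p = 0.0462), a call lost without any single sibling pool or without mutant pool 1, 2 or 3. Its duplicate nfe2l1b had a difference of 0.23 ± 0.19 (adjusted p = 0.316). Nfe2l2a, the oxidative stress regulator, was 0.94 ± 0.12 higher (adjusted p = 0.000368) by its brightest probe and 0.23 higher (adjusted p = 0.117) by the mean of its probes. The partners maff and mafgb were 1.15 ± 0.09 and 0.90 ± 0.09 higher (adjusted p = 7.27e-05 and 0.000122) with no overlap.

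Among 8 genes of the shuttles and the segregase, which carry tagged proteins to the proteasome or pull them from complexes, 3 rose. This is 37.5% called, against 57.6% of all genes. The shuttle rad23ab was 3.41-fold higher (adjusted p = 0.000106), the segregase adaptor ufd1l was 1.51-fold higher (adjusted p = 0.00382), and nsfl1c was 1.29-fold higher (adjusted p = 0.0417). Nsfl1c passed in 11 of 20 alternatives, and under normexp the log2 difference of rad23ab was 1.14 in place of 1.77. Of 20 genes for ubiquitin and its activation 2 rose and 3 fell, 25% called against 57.6% of all genes. The conjugating enzyme genes ube2r2, ube2l3a and ube2g1b had differences of 0.79, -0.70 and -0.47 (adjusted p = 0.00117, 0.0045 and 0.0075).

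None of the 6 tested genes of the particle and its partners that the symbol rule does not cover passed the limma test. They include the subunit genes adrm1 and sem1, with differences of 0.05 and -0.11 (adjusted p = 0.810 and 0.572). Of the 6, 1 had an unadjusted p under 0.05, and 1 passed under normexp. The gene under that unadjusted threshold was the core assembly factor pomp, with a difference of -0.33 ± 0.13 (adjusted p = 0.0536). Pomp passed in 7 of 20 alternatives, among them normexp, the slide row block and the fit without mutant pool 4. In that last fit 2 of the 6 genes were called lower. Of 9 ubiquitin ligases linked to muscle atrophy 2 rose and 3 fell, 55.6% against 57.6% of all genes. Among those that fell, fbxo30a and fbxo30b were dim in mutants and met the detection filter mainly through the siblings. Of the 7 ligases detected on all 8 arrays, 2 rose and 1 fell. Fbxo30b did not pass under normexp (-0.38, adjusted p = 0.0531). The first by adjusted p was fbxo21 (0.91 ± 0.10, adjusted p = 0.00018). Trim63a also rose (0.92, adjusted p = 0.0414) and passed in 12 of 20 alternatives. Fbxo32 and trim63b did not pass, with differences of 0.22 and -0.29 (adjusted p = 0.661 and 0.467). The median of the ligases was -0.27, and 0.22 without mutant pool 4. Fbxo30a was not well above background in mutants and was at least 3.68-fold lower there on the main scale (adjusted p = 0.000221). Under normexp it was 1.46-fold lower (adjusted p = 0.00441).

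The lid is related in architecture to the COP9 signalosome and to eIF3, and the chaperonin CCT is another housekeeping complex of many subunits. In the COP9 signalosome 1 of 9 genes fell (cops5, the counterpart of psmd14, -0.51 ± 0.15, adjusted p = 0.0181), and the median was -0.10. In eIF3 2 of 16 rose and 2 fell, with a median of -0.10. In CCT 3 of 8 fell, with a median of -0.11 and cct5 at -0.42 ± 0.08 (adjusted p = 0.00335). The directions in both turned under quantile scaling, where CCT had 4 higher and 0 lower genes with a median of 0.12, and eIF3 had 8 higher and 0 lower genes with a median of 0.27. The share called was 11.1%, 25% and 37.5% in these complexes, 24.3% in the 26S proteasome and 57.6% over all genes. No test of the difference between lists was made.

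**Figure D5:**
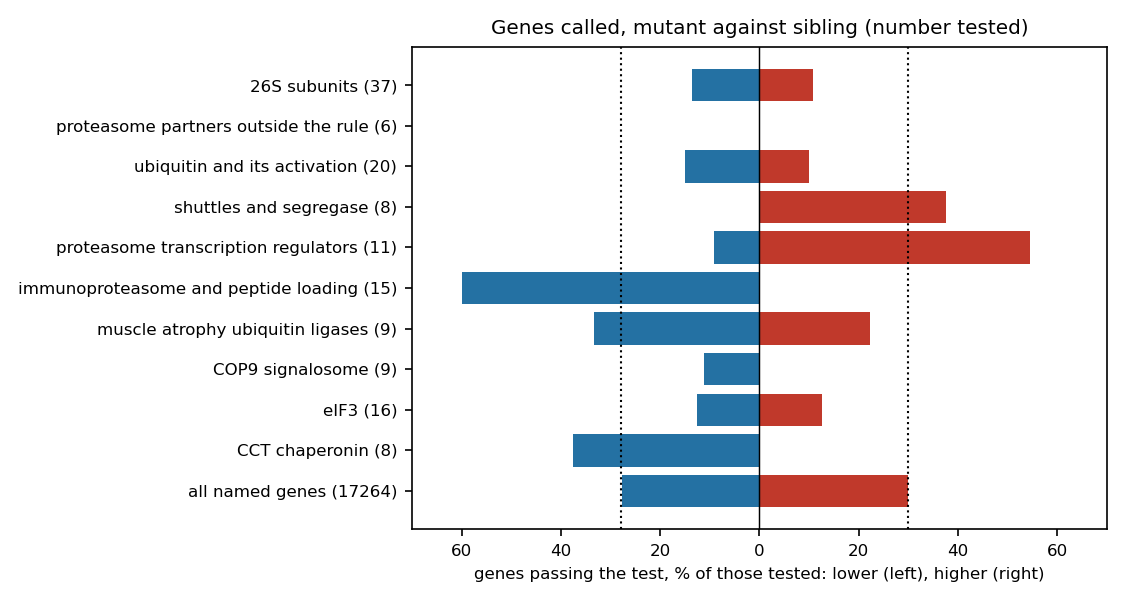
Share of tested genes that fell (blue bars, left) or rose (red bars, right) in mutants, as a percentage of the number tested (in brackets), for the 26S subunits, the other lists and all named genes, whose shares of 27.8% and 29.9% are drawn as dotted lines. The 26S subunits lie inside both lines. The immunoproteasome, muscle atrophy ligase and CCT lists pass the left line, and the shuttles and transcription regulators pass the right one. The shuttles do not pass it with no filter on dim probes or with the replicate block, where 2 of the 8 genes were higher. Under quantile scaling CCT does not pass the left line, with 0 of its genes lower. Of the 7 muscle atrophy ligases detected on all 8 arrays, 1 was lower.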

How the data were processed

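Per the file headers, the deposited one-colour intensity values (gProcessedSignal) came from Agilent Feature Extraction 10.7.3.1 and were background-corrected by it. The authors' deposited log2 table was used as an alternative: per array, 95.5% to 96.7% of its values lay within 0.05 of log2 intensity scaled to the 75th percentile and centred per probe on the median of the 8 arrays. Column medians ran from -0.09 to 0.17.

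Each array held 61657 non-control spots. Over all 8 arrays together, 1099 spot values marked as outliers were dropped, and 0 were saturated. Spots were averaged per probe (39749), scaled, and the 29937 probes detected well above background on 4 or more of the 8 arrays were kept. Genes (61.8% of probes) were named through RefSeq accessions, and the brightest kept probe stood for a gene. The test was limma's (version 3.58.1, under R 4.3.3), with Benjamini-Hochberg adjustment over all kept probes. Its code was tested on simulated data with few changed probes. Those data were drawn from scaled values without slide rows, so the scaling and slide rows were not checked. Intervals cover 95%, and 4 arrays per group limit the precision.

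The members and lists were chosen with earlier results of these data known. Genes named in full were the 2 largest called changes per role, the proteolytic subunits, psmd14, the psmd4 genes and members against their role's direction; all other 26S genes were named with a value, and up to 3 genes by adjusted p per other list. Other genes were added after their values were seen. Normexp used spot medians, since spot means were not used here. The planned promoter motif search was not run.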

Additional observations from a re-analysis of the deposited data

Results flagged for a closer look

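In 108 groups of 4 pools (each member in each genotype), 5 held a pool far from the other 3, and chance gives about 1 in 20 groups. Mutant pool 4 stood above the other mutant pools in 4 of them. Its level was 2.53 for psma2a (others 2.26 to 2.29), 2.67 for psma3 (others 2.35 to 2.37), 1.04 for psmc3 (others 0.79 to 0.83) and 1.93 for psmd1 (others 1.48 to 1.55). Sibling pool 3 was at -3.48 for the dim psma6l, with the others from -3.99 to -3.95. Mutant pool 4 also had the lowest share of probes well above background, 67.3%. The part of that share in these values was not tested.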

How the results depend on the processing

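The counts of 6 higher and 13 lower proteasome genes became 4 to 9 and 11 to 16 when any 1 pool was left out, and 4 to 8 and 12 to 18 under the other alternatives on all 8 arrays. The higher count was 4 without sibling pool 2, 3 or 4 or mutant pool 2 or 4, and 9 without sibling pool 1. Leaving out 1 pool moved the core median between -0.25 and -0.11, the base median between -0.03 and 0.09 and the lid median between 0.09 and 0.31. Slide row 2 alone, an alternative chosen after seeing the data, gave 0 higher and 2 lower genes with limma (2 and 6 at an unadjusted p under 0.05), and 5.48% of all genes were called there; row 1 alone gave 5 and 12, with 43.6% of all genes called. Psma6l turned to 0.23 (adjusted p = 0.0360) under normexp; the cause was not tested. Deviations of same-numbered pools from their genotype means correlated at 0.18, 0.10, -0.02 and -0.03. Same-numbered pools lay in opposite slide rows, so these values cannot decide whether the numbers pair the pools. With the replicate block the counts were 4 and 12, with psma1 (adjusted p = 0.0845), psma6a (0.0687) and psmd3 (0.0806) not past the threshold. Dim probes limit psmd11a, psma6l and psmb11b.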
